A study of Mus musculus with 10 samples.

Results

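The 10 genes described here were grouped as guanine nucleotide exchange factors of the small GTPase ARF6. Which ARF each one acts on was not measured. The genes are the cytohesins Cyth1, Cyth2, Cyth3 and Cyth4, the IQSEC genes Iqsec1 and Iqsec2, and the PSD genes Psd, Psd2, Psd3 and Psd4. They were found by symbol among the 52636 gene rows of the deposited count table, 1 row each, and all 10 were among the 17286 genes that passed the filter on low counts. Polyadenylated RNA had been sequenced from 10 mouse tumours labelled as melanoma. Of these, 6 carried the genotype BrafCA;Cdkn2af/f; Arf6Q67L and 4 controls carried BrafCA;Cdkn2af/f alone, so the Braf and Cdkn2a alleles were common to both groups and the groups differed by Arf6Q67L. The labels do not give the promoter or cell type of the recombinase, the age of the mice, or whether each tumour came from a different animal. P-values therefore measure the spread between these tumours only.

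ARF6 works at the cell surface and on endosomes, where it steers membrane recycling, adhesion and actin. It is switched on when an exchange factor opens its nucleotide pocket through the Sec7 domain, in which a conserved glutamate ejects GDP so that GTP can bind. It is switched off when a GTPase-activating protein helps it to hydrolyse GTP. The Arf6Q67L form cannot hydrolyse GTP efficiently and so needs no exchange factor to stay active. Exchange factors of several of these families have been linked to growth factor and integrin signalling in tumour cells.

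All 10 are protein-coding genes on GRCm38, spread over 10 chromosomes. Cyth1 (ENSMUSG00000017132) lies at chr11:118132019-118248592 on the minus strand, and Cyth2 (ENSMUSG00000003269) at chr7:45806637-45814581 on the minus strand. Cyth3 (ENSMUSG00000018001) lies at chr5:143622447-143710250 on the plus strand, and Cyth4 (ENSMUSG00000018008) at chr15:78597047-78622019 on the plus strand. Iqsec1 (ENSMUSG00000034312) lies at chr6:90656088-90988685 on the minus strand, and Iqsec2 (ENSMUSG00000041115) at chrX:152144268-152225236 on the plus strand. Psd (ENSMUSG00000037126) lies at chr19:46312087-46327156 on the minus strand, and Psd2 is ENSMUSG00000024347. Psd3 (ENSMUSG00000030465) lies at chr8:67689082-68212027 on the minus strand, and Psd4 (ENSMUSG00000026979) at chr2:24367580-24414954 on the plus strand.

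The Sec7 stretch around the catalytic glutamate was found in every member, in coding transcripts of GENCODE on GRCm38. For 9 of them, 63 bases of it (21 codons) are shown. Sec7 domain proteins outside the group were not compared over this stretch. Each line reads 5′ to 3′ along the gene. Capitals mark bases that differ from Cyth1 in the cytohesins, from Iqsec1 in Iqsec2, and from Psd in the other PSD genes. The Cyth1 stretch lies at chr11:118183922-118183984 (minus strand), that of Cyth2 at chr7:45810894-45810956 (minus), that of Cyth3 at chr5:143701329-143701391 (plus) and that of Cyth4 at chr15:78609772-78609834 (plus).
Cyth1: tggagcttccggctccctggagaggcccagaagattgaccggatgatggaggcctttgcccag
Cyth2: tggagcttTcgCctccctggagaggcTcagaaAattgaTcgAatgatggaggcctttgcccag
Cyth3: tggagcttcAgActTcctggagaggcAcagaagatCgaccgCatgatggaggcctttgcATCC
Cyth4: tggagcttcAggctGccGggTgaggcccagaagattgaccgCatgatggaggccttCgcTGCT
Iqsec1: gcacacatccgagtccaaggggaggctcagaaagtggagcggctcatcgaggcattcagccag
Iqsec2: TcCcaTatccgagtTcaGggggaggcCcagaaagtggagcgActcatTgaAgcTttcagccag
Psd: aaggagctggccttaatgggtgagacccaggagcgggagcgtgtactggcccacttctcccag
Psd3: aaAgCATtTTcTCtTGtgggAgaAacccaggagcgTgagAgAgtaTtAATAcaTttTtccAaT
Psd4: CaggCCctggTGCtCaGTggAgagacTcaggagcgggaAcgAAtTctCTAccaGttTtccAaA

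Within this stretch Cyth2 differed from Cyth1 at 6 bases (90.5% identity) and at 0 of 21 encoded residues. Cyth3 and Cyth4 each differed from Cyth1 at 10 bases (84.1%) and at 1 residue. Iqsec2 differed from Iqsec1 at 10 bases (84.1%) and at 1 residue. The PSD genes were less alike: Psd2, whose sequence is not shown here, differed from Psd at 20 bases (68.3%) and 5 residues, Psd3 differed from Psd at 24 bases (61.9%) and 6 residues, and Psd4 at 22 bases (65.1%) and 8 residues. The Iqsec1 stretch spans 2 exons on the minus strand between chr6:90676911-90678082, and the Iqsec2 stretch spans 2 exons on the plus strand between chrX:152212086-152213290. The Psd stretch lies at chr19:46320291-46320353 (minus), that of Psd3 at chr8:67906299-67906361 (minus) and that of Psd4 at chr2:24401231-24401293 (plus).

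Shared sequence that could mix the counts of paralogues was looked for in their transcripts. The longest run of bases shared by any 2 members' transcripts was 32, in Cyth2 with Cyth3 and in Iqsec1 with Iqsec2, and no window of 50 bases was shared between members. Psd3 shared 14 such windows (0.0786% of its own) with other genes on the same strand, and the other 9 members shared 0. Exons of other genes lay on the opposite strand over 381 bases of Cyth2 (Gm45444), 574 bases of Iqsec1 (Gm44123), 299 bases of Psd (Nfkb2) and 114 bases of Psd3 (Gm15991). The library kit keeps strand, but the strand setting of the counting is not given in the sources used here, so reads from those bases may have been counted for either gene or for neither.

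Libraries held between 31372896 and 37918116 counts in Arf6Q67L tumours and between 28635414 and 40869091 in controls. The labelled tissue was checked against 7 melanocyte markers: Tyr and Dct were at 0 in all 10 libraries, Tyrp1 and Mlana were at 0 in 8 of 10 each, and Mitf averaged 17.0 ± 5.57 CPM, the count scaled to library size, in Arf6Q67L tumours and 16.6 ± 4.18 CPM in controls (SD, n = 6 and 4). Each count of 0 allows up to 3 counts, or at most 0.106 CPM. Control 4 stood farthest from the other tumours on the principal component that held most variance (25.8%), and had the highest summed level of leukocyte, macrophage and T cell markers. It also had the highest summed level of skeletal muscle (904 CPM), adipocyte (182 CPM) and B cell (18.2 CPM) markers. The part of these contents in its exchange factor levels was not tested. Arf6Q67L tumours hold library numbers 1 to 6 in the labels and controls hold 9 to 12, which means that genotype and library order cannot be told apart. By Xist and Y-linked counts, 3 Arf6Q67L tumours and 1 control came from females, and the other 6 tumours from males.

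None of the 10 exchange factor genes differed between the genotypes past the threshold, an adjusted p of 0.05 over all genes tested in edgeR's quasi-likelihood test. No gene of the 17286 passed it (0%), while 2023 genes (11.7%) had an unadjusted p under 0.05 and DESeq2 passed 413 of 16545 genes (2.5%, with 1.49% lower in Arf6Q67L tumours), with 0 of the 10 exchange factors among them. Fold changes of the members, Arf6Q67L over control, were positive for 5 genes and negative for 5, with a median of -0.04 on the log2 scale, against 0 over all genes tested. Of the members, 2 (Cyth1 and Cyth4) were lower in Arf6Q67L tumours at an unadjusted p under 0.05, against 7.05% of all genes tested, and 0 were higher, against 4.65%. In 0 of 10 members did the values of the groups stand fully apart, against 2.44% of all genes tested (1.28% lower and 1.15% higher in Arf6Q67L tumours).

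**Figure D1:**
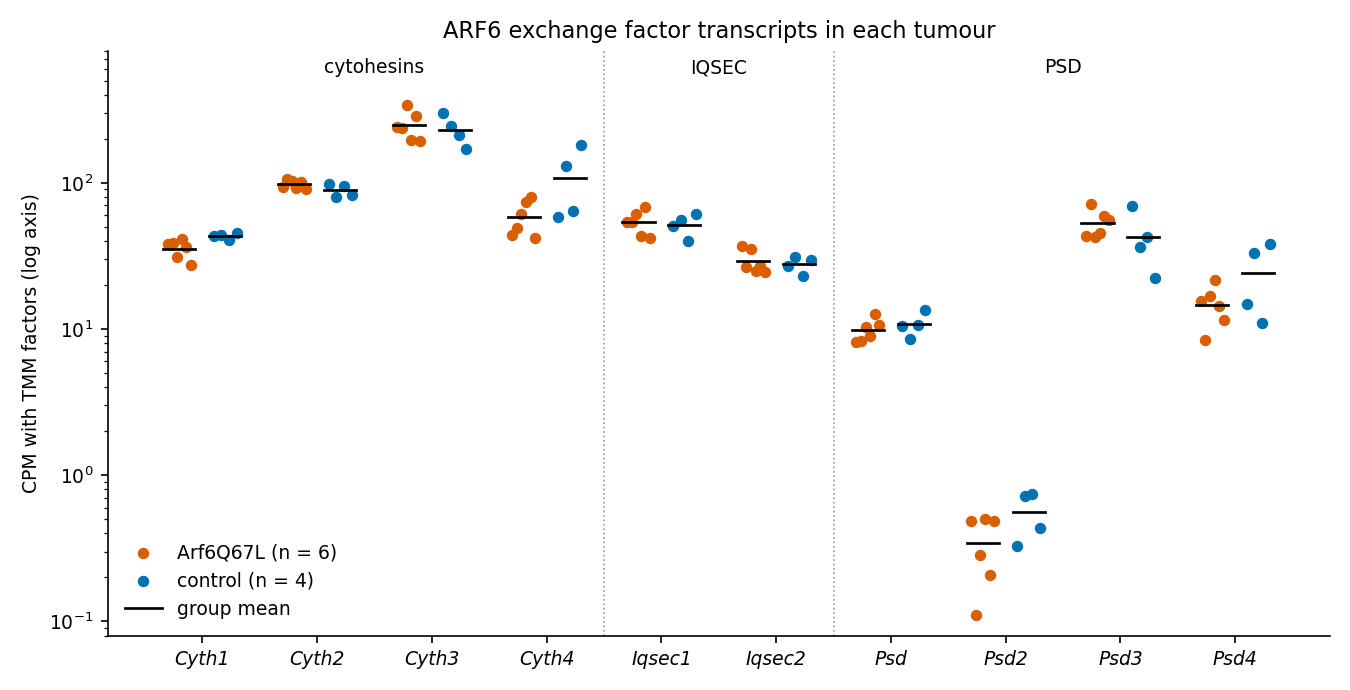
CPM scaled with TMM factors (log axis) of each exchange factor gene in 6 Arf6Q67L tumours (orange, left of each pair) and 4 control tumours (blue), with 1 point per tumour and the group mean as a bar. The groups overlap for every gene, and 2 of the 4 controls lie above the rest for Cyth4 and Psd4.

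Cyth1 encodes a cytohesin first described in leukocytes, where it binds the integrin beta-2 tail. Its level in Arf6Q67L tumours was 27.5 CPM at the lowest, 37.3 at the median and 41.5 at the highest, against 43.1, 43.9, 40.7 and 45.2 CPM in controls. All but 1 of the Arf6Q67L tumours (5 of 6) lay below every control, and the controls were tightly grouped. Means were 35.5 ± 5.3 CPM in Arf6Q67L tumours and 43.2 ± 1.89 CPM in controls (SD, n = 6 and 4). On the log2 scale the fold change was -0.28 (SE 0.12, 95% interval -0.55 to -0.02, edgeR adjusted p = 0.404, unadjusted p = 0.0384). The unadjusted p was 0.0927 in edgeR's classic exact test.

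Cyth4 is known as the cytohesin of blood cells, and it had the lowest fold change among the members. It measured 41.8 CPM at the lowest, 55.2 at the median and 80.0 at the highest in Arf6Q67L tumours, against 58.7, 129.5, 64.5 and 181 CPM in controls 1 to 4. Controls 2 and 4 lay above every Arf6Q67L tumour, while controls 1 and 3 lay within their range. Means were 58.3 ± 16.0 CPM in Arf6Q67L tumours and 108 ± 58.1 CPM in controls (SD, n = 6 and 4). On the log2 scale the fold change was -0.90 (SE 0.33, 95% interval -1.63 to -0.16, edgeR adjusted p = 0.362, unadjusted p = 0.0214). Without control 4 the log2 fold change was -0.52 (edgeR unadjusted p = 0.108), and without control 1 it was -1.10 (edgeR unadjusted p = 0.00648, adjusted p = 0.233). With sex as a term it was -0.79 (edgeR unadjusted p = 0.0619). The unadjusted p was 0.00822 in edgeR's classic exact test (adjusted p = 0.211) and 0.0107 in DESeq2 (adjusted p = 0.165).

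Cyth2, also named ARNO, acts downstream of many receptors and is widely expressed. It held 91.0 CPM at the lowest, 97.7 at the median and 107 at the highest in Arf6Q67L tumours, against 98.0, 80.6, 94.8 and 81.9 CPM in controls. It was the steadiest member, with 1.32-fold between the highest and the lowest of 10 tumours. Means were 98.0 ± 6.57 CPM in Arf6Q67L tumours and 88.8 ± 8.85 CPM in controls (SD, n = 6 and 4). On the log2 scale the fold change was 0.14 (SE 0.09, 95% interval -0.05 to 0.34, edgeR adjusted p = 0.567).

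Cyth3, whose PH domain binds the lipid product of PI3-kinase, had 192 CPM at the lowest, 239 at the median and 343 at the highest in Arf6Q67L tumours, against 298, 245, 211 and 169.5 CPM in controls. The groups overlapped almost fully. The fold change on the log2 scale was 0.11 (SE 0.20, 95% interval -0.34 to 0.55, edgeR adjusted p = 0.868).

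Iqsec1 and Iqsec2 bind calmodulin through an IQ motif. Iqsec1 links growth factor receptors to ARF6 and to the uptake of adhesion proteins, and Iqsec2 is best known from excitatory synapses. Iqsec1 had 42.2 CPM at the lowest, 53.9 at the median and 68.3 at the highest in Arf6Q67L tumours, against 50.4, 55.4, 39.9 and 61.3 CPM in controls. The estimated log2 difference was 0.05 (SE 0.16, 95% interval -0.31 to 0.42, edgeR adjusted p = 0.928). The interval leaves room for a change of either sign.

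Iqsec2 had 24.7 CPM at the lowest, 26.8 at the median and 37.0 at the highest in Arf6Q67L tumours, against 26.9, 31.1, 23.2 and 29.7 CPM in controls. The estimated log2 difference was 0.08 (SE 0.15, 95% interval -0.26 to 0.41, edgeR adjusted p = 0.879). The highest values, 37.0 and 35.4 CPM, were both from female Arf6Q67L tumours. Iqsec2 is on the X chromosome, and it averaged 31.0 ± 6.09 CPM in tumours of females and 27.0 ± 2.96 CPM in those of males (SD, n = 4 and 6), a log2 difference of 0.18, two-sided exact permutation p = 0.219 (0.896 adjusted over the 10 members).

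The PSD proteins carry a PH domain beside the Sec7 domain and bring ARF6 activation to the plasma membrane. Psd is mostly a gene of neurons, Psd2 is likewise best known from brain, Psd3 is widely expressed and Psd4 has been tied to epithelial junctions. Psd had 8.20 CPM at the lowest, 9.72 at the median and 12.6 at the highest in Arf6Q67L tumours, against 10.5, 8.58, 10.7 and 13.4 CPM in controls, and the log2 fold change was -0.13 (SE 0.17, 95% interval -0.52 to 0.25, edgeR adjusted p = 0.804). Neuronal markers were also low, with summed levels of 2.84 to 6.96 CPM in Arf6Q67L tumours and 5.76 to 7.77 CPM in controls over 5 genes, and their part in the Psd and Psd2 values was not tested. Psd2 itself was near the limit of detection, with 4 to 18 counts per library in Arf6Q67L tumours and 13 to 23 in controls. It measured 0.110 CPM at the lowest, 0.387 at the median and 0.501 at the highest in Arf6Q67L tumours, against 0.330, 0.723, 0.740 and 0.436 CPM in controls, and the log2 fold change was -0.68 (SE 0.43, 95% interval -1.64 to 0.29, edgeR adjusted p = 0.582).

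Psd3 had 42.4 CPM at the lowest, 50.5 at the median and 71.5 at the highest in Arf6Q67L tumours, against 69.5, 36.6, 42.7 and 22.2 CPM in controls. Control 4 was the lowest of all tumours for Psd3, while control 1 was second only to Arf6Q67L tumour 2. The log2 fold change was 0.31 (SE 0.28, 95% interval -0.32 to 0.94, edgeR adjusted p = 0.715). It was 0.10 without control 4 and 0.65 without control 1 (edgeR unadjusted p = 0.0241 and adjusted p = 0.304 in the second case).

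Psd4 ran the other way. It had 8.44 CPM at the lowest, 14.9 at the median and 21.5 at the highest in Arf6Q67L tumours, against 14.9, 33.2, 11 and 38.2 CPM in controls. Controls 2 and 4 were again above every other tumour. Means were 14.7 ± 4.49 CPM in Arf6Q67L tumours and 24.3 ± 13.4 CPM in controls (SD, n = 6 and 4). On the log2 scale the fold change was -0.73 (SE 0.37, 95% interval -1.55 to 0.09, edgeR adjusted p = 0.473), which was -0.41 without control 4 and -0.97 without control 3.

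**Figure D2:**
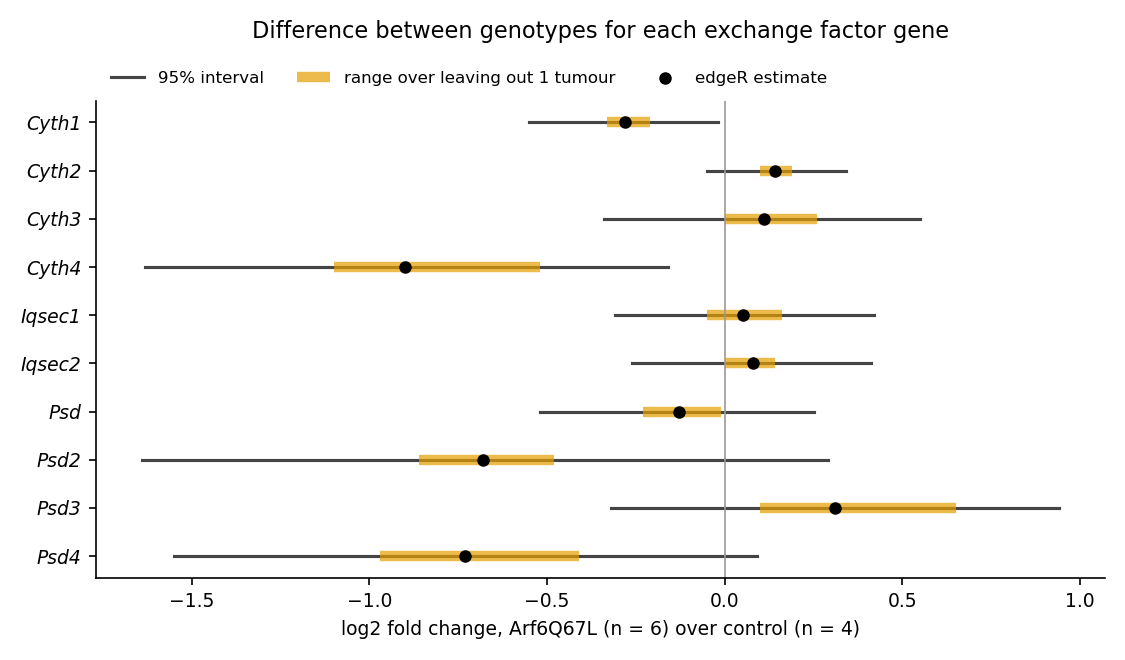
Log2 fold change of each exchange factor gene, Arf6Q67L (n = 6) over control (n = 4), with its 95% interval (line) and the range of the estimate when each tumour was left out in turn (orange band). The intervals of Cyth1 and Cyth4 lie below 0 before adjustment for all genes tested, and the widest bands are those of Cyth4, Psd3 and Psd4.

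Levels of the paralogues were compared with each other per length, as TPM, the count divided by the combined exon length of the gene and scaled to the same total in every tumour. Cyth2 (89.2 ± 11 TPM) and Cyth3 (83.1 ± 18.2 TPM) were at the top over the 10 tumours (SD, n = 10). Cyth1 (32.0 ± 4.06 TPM) and Cyth4 (33.1 ± 17.0 TPM) followed, then Iqsec1 (14.8 ± 2.52 TPM), Iqsec2 (13.3 ± 2.37 TPM), Psd3 (9.08 ± 3.07 TPM), Psd4 (5.02 ± 2.43 TPM), Psd (4.34 ± 0.67 TPM) and Psd2 (0.290 ± 0.132 TPM). Cyth2 was the highest member in 5 tumours and Cyth3 in 4. In control 4 it was Cyth4, the blood cell cytohesin, at 73.4 TPM against 72.8 TPM for Cyth2 and 55.0 TPM for Cyth3.

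Neighbours in that order were compared within tumours with a two-sided exact sign-flip permutation test, ordered by mean log2(TPM + 0.1) and adjusted over 9 pairs. Cyth3 stood above Cyth1 in 10 of 10 tumours by 1.35 on the log2 scale (exact adjusted p = 0.00586). Cyth4 stood above Iqsec1 in 10 of 10 by 1.04 (exact adjusted p = 0.00586), Iqsec2 above Psd3 in 8 of 10 by 0.61 (exact adjusted p = 0.0176) and Psd above Psd2 in 10 of 10 by 3.58 (exact adjusted p = 0.00586). The other 5 pairs did not differ beyond their spread: Cyth2 with Cyth3 (exact adjusted p = 0.213), Cyth1 with Cyth4 (0.684), Iqsec1 with Iqsec2 (0.0674), Psd3 with Psd4 (0.0633) and Psd4 with Psd (0.684).

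The order depends on the length given to each gene. With the longest transcript, or with the mean length of the coding transcripts, Cyth3 was above Cyth2 and Cyth4 above Cyth1 (exact adjusted p = 0.00293 for each). Iqsec2 over Psd3 no longer passed with the longest transcript (0.19, exact adjusted p = 0.363), and with the mean coding length Psd3 was above Iqsec2 (-0.79 for Iqsec2 over Psd3, exact adjusted p = 0.01). The position of the cytohesins as a family above the IQSEC and PSD genes held under all 3 lengths for mean TPM, with 28.7 TPM for Cyth1 as the lowest cytohesin mean and 18.9 TPM for Iqsec1 as the highest mean outside that family.

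Together the 10 exchange factor genes reached 253 TPM at the lowest and 311 TPM at the highest in Arf6Q67L tumours, against 296, 283, 249 and 285 TPM in controls. The means of 288 ± 24.6 TPM in Arf6Q67L tumours and 278 ± 20.2 TPM in controls (SD, n = 6 and 4) differed by 0.05 on the log2 scale, two-sided exact permutation p = 0.552, where the smallest p this design allows is 0.00476. TPM here carry no TMM factors, so group differences are not the same as in CPM. Cyth2, for example, averaged 95.5 TPM in Arf6Q67L tumours and 79.7 TPM in controls, against 98.0 and 88.8 CPM. Cytohesins made up between 82.1% and 85.5% of the sum in every tumour. The cytohesins summed to 239.7 ± 21.4 TPM in Arf6Q67L tumours and 234 ± 15.0 TPM in controls, the IQSEC genes to 29.5 ± 4.39 TPM in Arf6Q67L tumours and 26.0 ± 3.63 TPM in controls, and the PSD genes to 18.8 ± 1.59 TPM in Arf6Q67L tumours and 18.6 ± 2.43 TPM in controls (SD, n = 6 and 4). None of these 3 sums differed by more than the spread between tumours (exact permutation p = 0.648, 0.229 and 0.810, n = 6 and 4).

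The mixture of paralogues within a family differed from tumour to tumour. Cyth4 made up between 8.53% and 14.4% of cytohesin transcripts per length in Arf6Q67L tumours, against 9.86%, 22.1%, 12.4% and 31.0% in controls 1 to 4. Cyth2 made up 39.97 ± 3.15% in Arf6Q67L tumours and 34.2 ± 4.68% in controls (SD, n = 6 and 4; exact permutation p = 0.0667, 0.357 adjusted over 9 shares). In the PSD family, Psd3 took between 45.3% and 68.9% in Arf6Q67L tumours, against 59.3%, 33.6%, 49.3% and 19.9% in controls. Psd4 took between 12.2% and 32.1% in Arf6Q67L tumours, against 19.0%, 45.7%, 19.0% and 51.0% in controls. By combined exon length, controls 2 and 4 therefore had more Psd4 than Psd3, which no other tumour had. In control 2 this order depends on the length used. Its counts were 1163 for Psd3 and 1056 for Psd4, and the longest transcripts measure 11319 and 11265 bases, so Psd3 is the higher with those lengths. No share passed 0.05 after adjustment over the 9 shares (smallest adjusted p = 0.357, exact permutation test).

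**Figure D3:**
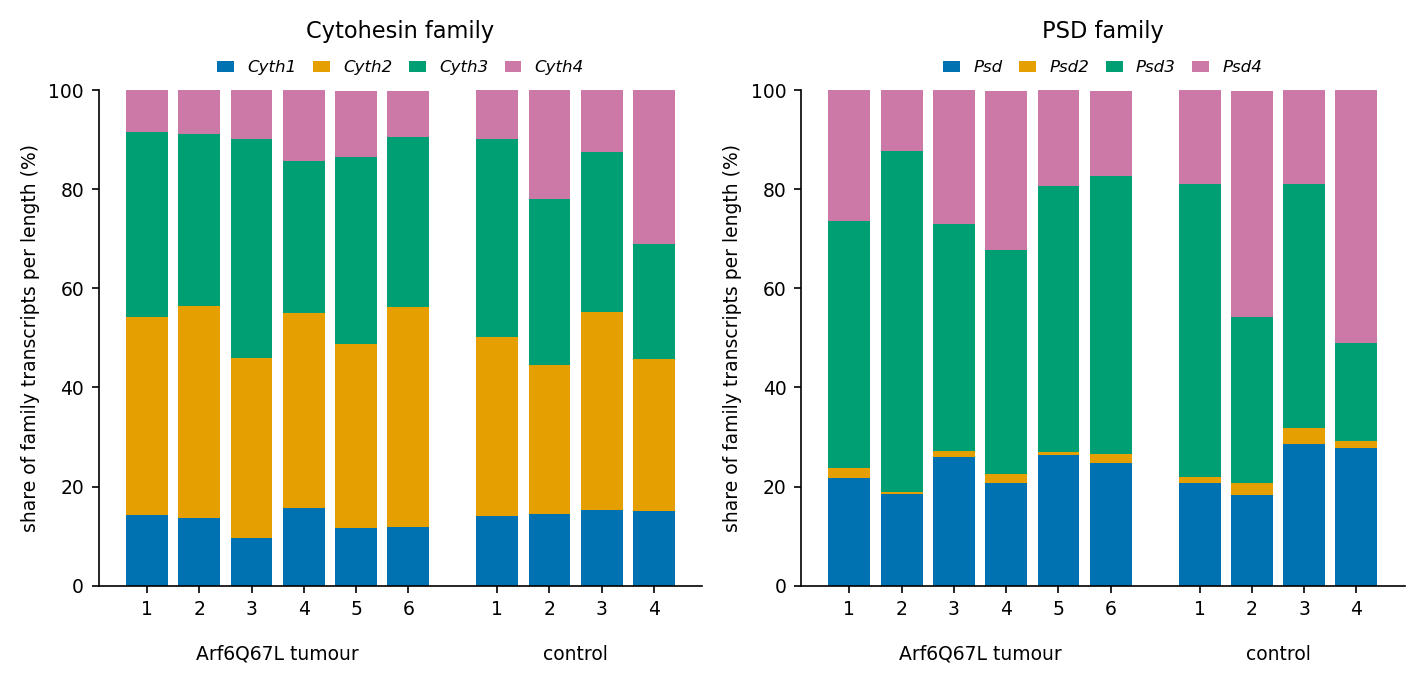
Share of each paralogue in the summed TPM of its family (percent, stacked from 0), in the 6 Arf6Q67L tumours and then the 4 controls, with cytohesins in the left panel and PSD genes in the right. By combined exon length, Cyth4 reaches 22.1% and 31.0%, and Psd4 45.7% and 51.0%, in controls 2 and 4.

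Bulk tumours hold many cell types, and in them fewer cells of a type and less RNA per cell cannot be told apart. The leukocyte markers had fold changes of the same sign as Cyth4: 6 of 6 genes had a negative log2 fold change (median -0.82), against 50.3% of all genes tested. In edgeR 4 of them were lower at an unadjusted p under 0.05, against 7.05% of all genes tested. None passed the threshold, as no gene of the whole table did. Their summed level ranged from 394 to 785 CPM in Arf6Q67L tumours and from 525 to 1531 CPM in controls. Macrophage and monocyte markers were negative in 8 of 9 genes, and 5 were lower at an unadjusted p under 0.05. Their sums ran from 918 to 1918 CPM in Arf6Q67L tumours and from 1440 to 3654 CPM in controls. The exception, Mrc1, averaged 496 ± 254 CPM in Arf6Q67L tumours and 326 ± 119 CPM in controls (SD, n = 6 and 4). Its log2 fold change was 0.60 (SE 0.46, edgeR adjusted p = 0.65). T cell markers were negative in 8 of 8, and 5 were lower at an unadjusted p under 0.05. Their sums ran from 25.3 to 105 CPM in Arf6Q67L tumours and from 53.1 to 378 CPM in controls. Beyond the ratios to marker levels given next, the part of leukocyte content in the Cyth4 difference was not tested.

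Per 100 CPM of leukocyte markers, Cyth4 stood at 10.3 ± 1.48 CPM in Arf6Q67L tumours and 11.9 ± 0.856 CPM in controls (SD, n = 6 and 4). The difference in log2 ratio was -0.22 (two-sided exact permutation p = 0.124). Against Ptprc (CD45) alone it was 0.02 (exact permutation p = 0.924), and against the macrophage and monocyte markers it was -0.33 (exact permutation p = 0.0667). Abundant markers weigh most in such sums. In Arf6Q67L tumours the highest means of the lists were those of Mrc1 and of the leukocyte marker Laptm5. Laptm5 averaged 224 CPM in Arf6Q67L tumours and 253 CPM in controls. The sums were not computed without Mrc1 or Laptm5.

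Across tumours Cyth4 followed the leukocyte markers closely. Pearson's r of log2 CPM was 0.96 and Spearman's rho 0.93 over 10 tumours (permutation adjusted p = 0.0024 and 0.009 over 40 relations of 10 members with 4 marker lists). Without controls 2 and 4, the tumours farthest from the median marker level, r was 0.83 (permutation adjusted p = 0.197), within the 6 Arf6Q67L tumours it was 0.85, and within the 6 tumours of males 0.98. For macrophage and monocyte markers r was 0.91 and rho 0.83 (permutation adjusted p = 0.006 and 0.0629).

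Psd4 followed macrophage and monocyte markers, with r of 0.89 and rho of 0.93 over 10 tumours (permutation adjusted p = 0.0076 and 0.009). The relation was r = 0.95 without Arf6Q67L tumour 6 and control 4, and 0.70 within the 6 Arf6Q67L tumours. Control 2, at 33.2 CPM of Psd4 and 2496 CPM of these markers, was not among the tumours left out. The macrophage relation was not computed without controls 2 and 4. With the leukocyte list the r of Psd4 was 0.80 and rho 0.49 (permutation adjusted p = 0.0414 and 0.393). It was 0.27 without controls 2 and 4, so that relation rests on those tumours.

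A pair of other members had a negative relation that passed the adjusted threshold by r and missed it by rho. Psd3 had r of -0.80 and rho of -0.70 with macrophage and monocyte markers (permutation adjusted p = 0.0459 and 0.179), and r was -0.71 without Arf6Q67L tumour 6 and control 4. Cyth2 had r of -0.84 and rho of -0.70 with T cell markers (permutation adjusted p = 0.0289 and 0.179), and r was -0.46 without controls 2 and 4. Cyth4 had r of 0.88 and rho of 0.79 with T cell markers (permutation adjusted p = 0.0216 and 0.092), and r was 0.48 without the same pair of controls. Cyth1, Cyth3, Iqsec1, Iqsec2, Psd and Psd2 had no relation past the threshold with leukocyte, macrophage, T cell or endothelial markers.

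**Figure D4:**
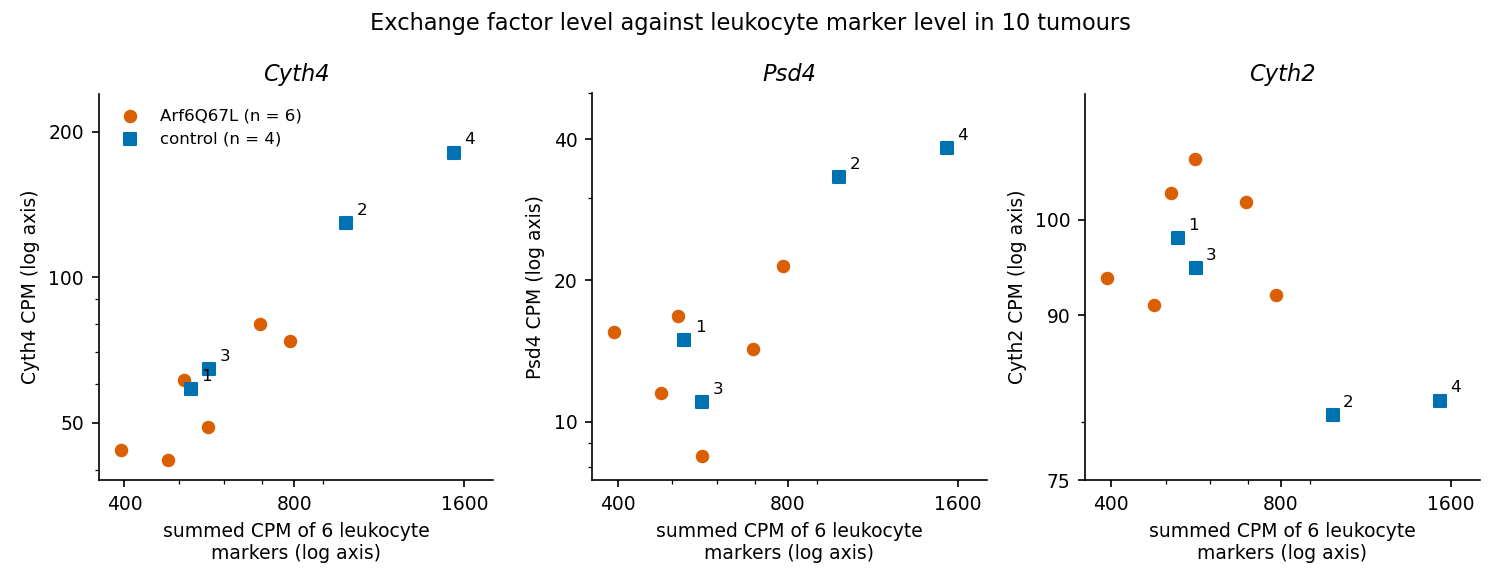
CPM of Cyth4, Psd4 and Cyth2 (log axes) against the summed CPM of 6 leukocyte markers in Arf6Q67L tumours (orange circles, n = 6) and controls (blue squares, n = 4, numbered). Controls 2 and 4, at 988 and 1531 CPM of markers, are the highest for Cyth4 and Psd4 and the lowest for Cyth2.

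Of the 45 pairs of members, none passed 0.05 after adjustment. Cyth4 and Psd4 had r of 0.86 and rho of 0.62 over 10 tumours (permutation adjusted p = 0.0889 and 0.406), and r was 0.46 without controls 2 and 4. Psd3 and Psd4, paralogues of 1 family, had r of -0.81 and rho of -0.72 (permutation adjusted p = 0.0889 and 0.406), and r was -0.52 without Arf6Q67L tumour 2 and control 4.

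The genes most like each member over the 10 tumours were taken by Pearson's r of log2 CPM among 13907 protein-coding genes. For Cyth4 they were Ly86 (r = 0.991), C1qc (0.987) and C1qb (0.987), a lymphocyte antigen that pairs with a Toll-like receptor homologue and a pair of complement chains made by macrophages. For Psd4 they were Cysltr2 (0.964), Rftn1 (0.963) and Kcnab2 (0.963). For Cyth1 they were Oas2 (0.939), an interferon-induced gene, Plekha2 (0.938) and Qrfpr (0.924). For Cyth2 they were Xkr6 (0.948), Pcbp1 (0.935) and Nbl1 (0.931), and for Cyth3 Layn (0.953), Timm29 (0.948) and Bag3 (0.927). Iqsec1 was most like Arhgdib (0.882), Iqsec2 most like Smcr8 (0.923), Psd most like Dcxr (0.956), Psd2 most like Col1a1 (0.900) and Psd3 most like Acot1 (0.941). Each r here is among the highest of 13907 values from 10 tumours, where a high r can also arise between unrelated genes. No p was computed for them, and whether paralogues differ in these genes was not tested.

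The promoter windows of Cyth4 and Psd4 are shown because these members followed leukocyte or macrophage markers across tumours. They are RefSeq windows on GRCm38.p6 running from 250 bases before to 50 after a start site, and 8 of the 10 members had at least 1 such window. GAGGAAGT, a purine-rich box bound by the myeloid factor PU.1, and GGAAGT, the core bound by ETS factors and contained in that box, were searched on both strands. GAGGAAGT was in 3.2% and GGAAGT in 23.8% of 32851 promoter windows. The Cyth4 window, chr15:78596797-78597096 on the plus strand, held GAGGAAGT 1 time, on the opposite strand, and no other member's window held it. The Psd4 window shown, chr2:24386366-24386665 on the plus strand, held GGAAGT 3 times and is the one of its 3 windows with the most matches (the others held 1 and 0). An Iqsec1 window, chr6:90810074-90810373 on the minus strand, also held GGAAGT 1 time, and Iqsec1 had no relation past the threshold with the marker lists. By gene, 26.5% of 27025 genes had GGAAGT in at least 1 window. Capitals mark the matches, read on the plus strand. A match describes letters and is not evidence of binding.
Cyth4: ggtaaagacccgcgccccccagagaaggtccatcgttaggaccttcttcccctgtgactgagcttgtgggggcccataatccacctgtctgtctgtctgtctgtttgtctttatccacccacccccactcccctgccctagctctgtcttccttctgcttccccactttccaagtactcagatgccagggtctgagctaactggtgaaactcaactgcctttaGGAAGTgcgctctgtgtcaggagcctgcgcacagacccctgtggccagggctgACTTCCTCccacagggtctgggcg
Psd4: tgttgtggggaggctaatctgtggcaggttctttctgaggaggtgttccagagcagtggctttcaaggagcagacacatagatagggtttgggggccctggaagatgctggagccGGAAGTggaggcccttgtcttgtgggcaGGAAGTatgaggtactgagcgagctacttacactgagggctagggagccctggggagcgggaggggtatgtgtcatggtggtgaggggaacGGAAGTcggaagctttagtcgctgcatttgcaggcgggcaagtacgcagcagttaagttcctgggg

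Around the exchange factors, the substrate Arf6 averaged 104 ± 21.3 CPM in Arf6Q67L tumours and 93.0 ± 17.4 CPM in controls (SD, n = 6 and 4). On the log2 scale the fold change was 0.17 (SE 0.18, edgeR adjusted p = 0.758). This row counts reads of the gene as a whole and does not separate the Arf6Q67L allele. The list of 6 ARF GTPases had 3 positive and 3 negative fold changes (median -0.01). Of the list of 6 other Sec7 domain proteins (Gbf1, Arfgef1, Arfgef2, Arfgef3, Fbxo8 and Iqsec3, the paralogue of Iqsec1 and Iqsec2), 4 were tested (Iqsec3 and Arfgef3 were below the filter) with a median of 0.15. Arfgef1, an exchange factor of the Golgi, had 107 ± 14.8 CPM in Arf6Q67L tumours and 93.2 ± 10.8 CPM in controls (SD, n = 6 and 4; log2 fold change 0.19, SE 0.12, edgeR adjusted p = 0.578).

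The 21 ARF GTPase-activating proteins, which switch ARFs off, had 9 positive and 12 negative fold changes (median -0.03). In edgeR 1 was lower at an unadjusted p under 0.05, where 7.05% of all genes tested were, and 0 were higher, against 4.65% of all genes. That 1 gene, Asap3, had 8.01 ± 1.85 CPM in Arf6Q67L tumours and 11.9 ± 2.72 CPM in controls (SD, n = 6 and 4; log2 fold change -0.57, SE 0.21, adjusted p = 0.368). Adap1 had a log2 fold change of -1.05 (SE 0.48, edgeR adjusted p = 0.430) and Acap1 one of -1.24 (SE 0.57, edgeR adjusted p = 0.435).

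The 12 adaptors and recruiters of cytohesins had 6 positive and 6 negative fold changes (median 0.04). At an unadjusted p under 0.05, 2 were lower and 1 was higher, against 7.05% lower and 4.65% higher of all genes tested. Cytip, a leukocyte protein that binds cytohesins, ranged from 53.7 to 147 CPM in Arf6Q67L tumours and from 112 to 274 CPM in controls (log2 fold change -0.76, SE 0.32, edgeR adjusted p = 0.410). Arrb2, the arrestin that recruits Cyth2 to receptors, ranged from 37.2 to 65.3 CPM in Arf6Q67L tumours and from 41.2 to 132 CPM in controls (-0.74, SE 0.29, edgeR adjusted p = 0.375). Frmd4a, a scaffold that links cytohesins to cell polarity proteins, ranged from 218 to 335 CPM in Arf6Q67L tumours and from 171 to 233 CPM in controls (0.33, SE 0.14, edgeR adjusted p = 0.415).

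The 11 receptors and adaptors upstream of ARF6 exchange had 6 positive and 5 negative fold changes (median 0.06). At an unadjusted p under 0.05, 1 was lower and 0 were higher, against 7.05% lower and 4.65% higher of all genes tested. Robo4, an endothelial receptor and the 1 that was lower, had 5.33 ± 1.67 CPM in Arf6Q67L tumours and 10.7 ± 3.7 CPM in controls (SD, n = 6 and 4; log2 fold change -1.01, SE 0.29, edgeR adjusted p = 0.283). Endothelial markers, a list that also holds Robo4, were negative in 6 of 6, against 50.3% of all genes tested. In edgeR 5 of them were lower at an unadjusted p under 0.05. Their sums ran from 76.5 to 256 CPM in Arf6Q67L tumours and from 127 to 302 CPM in controls. The part of endothelial content in the Robo4 value was not tested. Met, the receptor of hepatocyte growth factor, had 125 ± 38.4 CPM in Arf6Q67L tumours and 83.8 ± 26.9 CPM in controls (SD, n = 6 and 4; log2 fold change 0.58, SE 0.26, edgeR adjusted p = 0.433). In none of these 5 lists did a member pass the threshold over all genes tested.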

How the data were processed

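PolyA RNA was extracted with a Qiagen kit and sequenced from Illumina TruSeq Stranded libraries, per the labels' protocols. The authors deposited 1 table of raw counts per Ensembl gene. The submitters' processing notes list STAR 2.5.2b, featureCounts 1.5.1, DESeq2 1.18.0 and GRCm38, with no role for each. How strand and multi-mapping reads were handled is not stated in these sources. Columns were matched to samples by library identifier, and 0 were left over. Symbols and coordinates came from GENCODE M21 (99.7% of identifiers matched).

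Genes were tested with edgeR 4.0.16 in R 4.3.3: filterByExpr (minimum count 10), TMM factors, robust glmQLFit and glmQLFTest over all 10 tumours, and Benjamini-Hochberg adjustment over 17286 genes at 0.05. SE is the log2 fold change over the root of F. The common biological coefficient of variation was 0.416. CPM use TMM factors, and log2 CPM for correlations use a prior count of 2. TPM were computed from the counts and combined exon lengths, without TMM factors. Permutation tests of groups covered all 210 splits, and those of correlations drew 100000 resamples. Alternatives were DESeq2 1.42.0, RLE and upper-quartile factors, no filter, the classic exact test, limma 3.58.1 (voom with quality weights), sex as a term, other lengths and pseudocounts, and leaving out each tumour. The scripts were tested on simulated data of 6 against 4 tumours. There edgeR recovered 51 of 100 genes changed 2-fold and 69 of 100 changed 4-fold, with 5 false calls among 17286 genes. DESeq2 recovered 65 and 87 of them, with 52 false calls. A gene that did not pass may therefore still differ. No library was a repeat of another of its own group: the lowest chi-square per gene over the 21 pairs within groups was 77.9. Pairs across the genotypes were not compared. A count of 0 allows 3 counts, between 0.0761 and 0.106 CPM, which covers counting error only.

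All 10 members are named, with at most 4 genes of each pathway list (those of lowest unadjusted p), Arf6, up to 2 markers of each marker list (more for melanocytes) and the genes of highest r with each member. The members, the lists and the tests were chosen with earlier results of these data known. Tumour numbers follow accession order inside each genotype and carry no pairing.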

Additional observations from a re-analysis of the deposited data

How the results depend on the processing

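No exchange factor gene passed the threshold under any of 17 alternatives to the edgeR test, which were DESeq2, RLE and upper-quartile factors, no filter, sex as a term, the classic exact test, limma-voom and leaving out each of 10 tumours, and no member of the 5 pathway lists passed under DESeq2, without the filter or without any tumour. In 165 of 170 comparisons the sign of a member's log2 fold change and its side of the threshold were as reported. The exceptions lay near 0: Iqsec2 was at -0.0008 in limma-voom and between -0.0023 and 0.14 when each tumour was left out, Iqsec1 between -0.05 and 0.16, and Cyth3 between -0.0042 and 0.26. The summed level differed by -0.02 with mean coding transcript lengths, and by between -0.0035 and 0.08 when each tumour was left out. Leaving out tumours moved the share of Iqsec1 (Arf6Q67L minus control) between -1.85 and 0.895 percentage points and that of Psd between -2.69 and 0.764. The Cyth4 difference relative to markers was 0.02 against Ptprc alone and -0.33 against macrophage and monocyte markers, with neither past the threshold.

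The order of levels per length depended most on the length model, by construction. With the longest transcript, the mean log2 ratio was -0.37 for Cyth2 over Cyth3, -0.91 for Cyth1 over Cyth4, 0.46 for Iqsec1 over Iqsec2, 0.19 for Iqsec2 over Psd3, 1.45 for Psd3 over Psd4 and -0.79 for Psd4 over Psd. With mean coding transcript lengths it was -1.40 for Cyth2 over Cyth3, -1.94 for Cyth1 over Cyth4, 1.16 for Iqsec1 over Iqsec2, -0.79 for Iqsec2 over Psd3 and -0.09 for Psd4 over Psd. When each tumour was left out, the ratio lay between -0.00095 and 0.20 for Cyth1 over Cyth4, between 0.10 and 0.19 for Iqsec1 over Iqsec2, between 0.72 and 1.14 for Psd3 over Psd4 and between -0.04 and 0.17 for Psd4 over Psd. Psd3 over Psd4 passed the threshold with the longest transcript, without control 2 and without control 4. Iqsec1 over Iqsec2 passed it under both other lengths and without Arf6Q67L tumour 1. Cyth2 over Cyth3 and Cyth1 over Cyth4 passed it with the sign turned under both other lengths, Psd4 over Psd did so with the longest transcript and Iqsec2 over Psd3 with mean coding lengths. Iqsec2 over Psd3 did not pass with the longest transcript.

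Without the 2 tumours farthest from the median marker level, relations that had passed the threshold no longer did: r with leukocyte markers was 0.83 for Cyth4 and 0.27 for Psd4, with macrophage markers 0.80 for Cyth4 and -0.71 for Psd3, and with T cell markers -0.46 for Cyth2 and 0.48 for Cyth4. The exception was Psd4 with macrophage markers (r = 0.95). For macrophage markers the tumours left out were Arf6Q67L tumour 6 and control 4, so control 2 stayed in, whereas controls 2 and 4 were left out for leukocyte and T cell markers. Signs also turned in relations that had not passed. With leukocyte markers r became 0.09 for Cyth2, -0.003 for Iqsec1, -0.15 for Psd2 and 0.11 for Psd3. With macrophage markers it became 0.06 for Cyth3 and -0.12 for Psd, with T cell markers -0.38 for Iqsec1 and 0.12 for Psd3, and with endothelial markers -0.07 for Psd3. The cause of these changes was not tested.

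No paired analysis was possible because the labels give no replicate numbers that the 2 genotypes share. With 4 controls, of which 2 hold the highest Cyth4 and Psd4 levels, 1 tumour can decide these values. Psd2, at 4 to 23 counts per library, is limited by depth.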

Other observations

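Among the 6 tumours of males, 3 of each genotype, the largest differences were those of Psd2, Psd4, Cyth4 and Psd3. Cyth4 averaged 56.9 CPM in Arf6Q67L tumours of males and 125 CPM in controls of males, a log2 difference of -1.07. Psd4 averaged 11.4 CPM in the Arf6Q67L tumours and 27.5 CPM in the controls among them, a difference of -1.11, and Psd3 62.2 CPM in the Arf6Q67L tumours and 33.8 CPM in the controls, a difference of 0.92. Psd2 averaged 0.268 CPM in the Arf6Q67L tumours and 0.633 CPM in the controls, a difference of -1.46 that rests on few counts. These differences were not tested within males. The only control left out was control 1, which had the lowest Cyth4 (58.7 CPM) and the highest Psd3 (69.5 CPM) of the controls. Controls 2 and 4 stayed in. Without control 1 alone, the edgeR log2 fold changes over both sexes were -1.10 for Cyth4, -0.90 for Psd4 and 0.65 for Psd3. Cyth1, the member with the tightest controls, averaged 34.2 CPM in Arf6Q67L tumours of males and 43.3 CPM in controls of males (-0.35). No member differed by sex past the threshold over the 10 tumours (smallest adjusted p = 0.896, exact permutation test).

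Mast cell markers had fold changes of the other sign from the leukocyte list that Cyth4 followed. All 6 had positive log2 fold changes (median 3.08), where 50.3% of all genes tested were negative. In edgeR all 6 were higher at an unadjusted p under 0.05, against 4.65% of all genes tested, and none passed the threshold. Their summed level ran between 38.1 and 663 CPM in Arf6Q67L tumours and between 8.25 and 61.0 CPM in controls. Cyth4 was at 41.8 CPM, its lowest value, in Arf6Q67L tumour 6, where mast cell markers were highest. Macrophage and monocyte markers (918 CPM) and neutrophil markers (9.52 CPM) were at their lowest in the same tumour. In Arf6Q67L tumour 1, Cyth4 was nearly as low (44.0 CPM) with mast cell markers at 45.8 CPM. A relation of Cyth4 with mast cell markers was not tested.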
